A study of Mus musculus with 6 samples.

Results

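The long noncoding RNAs listed in this table of mouse optic nerve came down to 5 transcripts of 2 genes, Snhg11 and Tug1. Among 109383 listed transcripts they were chosen by a biotype label of lincRNA or antisense, older names for classes of long noncoding RNA, and by a measured level of at least 1 TPM in at least 3 of 6 libraries. TPM is a transcript's reads per base of its length, set against the same sum over the whole library. The chosen transcripts were Snhg11-205, Snhg11-206, Snhg11-207 and Snhg11-208, labelled lincRNA, and Tug1-207, labelled antisense. The 4 Snhg11 transcripts are listed under 1 gene, so they are not 4 separate observations.

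Poly(A) RNA was sequenced in bulk from optic nerves of mice 6 weeks old, with 3 libraries from a control diet (PicoLab 5053) and 3 from an obesogenic diet based on AIN-76A, with 58% of energy from fat, and sucrose. The series' title places the exposure to the diet in the mother. All 6 libraries carried the genotype GFAP-Cre; Nf1-Flox/R681X, in which Cre driven by the GFAP promoter removes the floxed Nf1 allele in astrocytes and their progenitors, and the R681X allele is present in every cell. Every group was therefore a model of neurofibromatosis type 1 optic glioma, and no library without the Nf1 alleles was compared. The labels did not say whether libraries came from separate litters, so p-values speak to the spread among these 6 samples alone, part of which may be technical.

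Snhg11 is a small nucleolar RNA host gene. Such genes are transcribed and spliced like coding genes, and small nucleolar RNAs, which guide chemical modification of other RNAs, are cut from their introns while the joined exons remain as a long noncoding RNA. Snhg11 is known for its enrichment in brain and in neurons. Tug1 (taurine upregulated gene 1) was first described in developing retina, is transcribed in most tissues from the strand opposite its neighbour Morc2a, and is known for isoforms that keep an intron and stay in the nucleus.

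Few other long noncoding RNAs could be read from this table. It listed 20 transcripts of 11 genes under these labels, 14 as lincRNA and 6 as antisense, and 11 of the 20 were at 0 in all 6 libraries. The 15 that were not chosen never reached 1 TPM in any library. Just below the minimum, Gm8439-202 was listed at 0.466, 0 and 0.458 TPM in the control libraries and at 0.488, 0 and 0 TPM in the obesogenic libraries, in the order of their numbers. Snhg11-203 was at 0 in the 3 control libraries and at 0.764, 0 and 0.974 TPM in the obesogenic ones, and 1700056E22Rik-202 reached 0.554 TPM in 1 control library. Just above the minimum stood Snhg11-208, with 4 libraries at 1 TPM or more, then Snhg11-205 with 5, while the other 3 transcripts passed in all 6. No transcript was chosen through the libraries of 1 diet alone. Of 76 symbols in 4 lists of known long noncoding RNAs, 4 were listed under any label. Malat1, Neat1, Miat and Gas5 were not analysed here, and of the genes named Snhg only Snhg11 and Snhg4 were listed. The remaining listed symbol, Gm12338, carried a processed pseudogene label and had a mean of 592 TPM with control diet and 514 TPM with obesogenic diet. Snhg4, whose transcripts carried coding and processed transcript labels, summed to 7.29, 1.08 and 3.35 TPM in the control libraries and 4.69, 3.63 and 14.9 TPM in the obesogenic ones.

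Splice sites at which some isoforms differ are shown for the transcripts whose structure was found. In GENCODE M21 (build GRCm38) Snhg11 spans chr2:158375638-158386145 on the plus strand and holds 2 small nucleolar RNA genes, Gm25187 (chr2:158378222-158378354) and Gm25129 (chr2:158379534-158379666). Snhg11-205 has 6 exons and 1329 bases over chr2:158375698-158381590, of which 60.3% lie in other listed isoforms found in that annotation. Each line below gives the last 15 bases of the second exon in lower case and the next 15 bases of the transcript in capitals, 5′ to 3′, in the GRCm38 sequence.
Snhg11-205: gaagcaagtatcccgGAGATGGGATAAAAA
Snhg11-203: gaagcaagtatcccgGTTCTTTGGCAGGAG
Snhg11-202: gaagcaagtatcccgGTAAGTGCTGCGGGT
The exon after this site is 12 bases longer in Snhg11-203 than in Snhg11-205, by the bases gttctttggcag, and 555 bases of Snhg11-205 are not in Snhg11-203. Snhg11-202, labelled retained intron, reads on into the intron, and the gene Gm25187 lies within its exons. Of the 5 chosen transcripts, Snhg11-205 and Tug1-207 were found in GENCODE M21, and no coordinates are given for Snhg11-206, Snhg11-207 and Snhg11-208. The labels that chose the transcripts differ between sources. GENCODE M21 labels Snhg11 as a protein-coding gene, with Snhg11-201 as a coding isoform, and Snhg11-205 as subject to nonsense-mediated decay, whereas the deposited table calls Snhg11-205 lincRNA. It labels Tug1-203 and Tug1-201 antisense, where the deposited table has processed transcript.

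Tug1 spans chr11:3639785-3649673 on the minus strand. Its 3 main isoforms differ at their ends and by 2 introns, which are shown here at the end of the exon before each intron, with exon bases in lower case and the next 15 bases of the transcript in capitals. The first intron (chr11:3645524-3646556, 1033 bases) is spliced out of Tug1-203 and Tug1-201 and retained in Tug1-207.
Tug1-203, first intron removed: ccaaagtgaactacgTCCCGTGCCTCCTGA
Tug1-207, first intron retained: ccaaagtgaactacgGTACTTGCCATTTTC
The second intron (chr11:3643180-3644771, 1592 bases) is spliced out of Tug1-203 and Tug1-207 and retained in Tug1-201.
Tug1-203, second intron removed: gatagaacctacatgCATTTTGTGAACAAC
Tug1-201, second intron retained: gatagaacctacatgGTAATCTCCTCTTTT
Tug1-207 has 2 exons and 3853 bases over chr11:3642462-3647906. It starts upstream of Tug1-203 (chr11:3639794-3647530) and ends before it. Of Tug1-203, 2668 bases are not in Tug1-207, and of Tug1-207, 1409 bases are not in Tug1-203. Of the bases of Tug1-207, 63.6% lie in other listed Tug1 isoforms. A read from shared bases does not show its isoform, so an isoform's level is an estimate, while the gene sum does not depend on that division.

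Snhg11 was listed at higher levels in the obesogenic libraries, but the difference did not pass the test over all genes. Its summed level was 46.3, 28.9 and 30.7 TPM in the control libraries and 356.7, 67.9 and 476.7 TPM in the obesogenic libraries. The groups did not overlap, the second obesogenic library stood nearest to the controls, and the other 2 stood far above it. The means were 35.3 ± 9.58 TPM (SD, n = 3) with control diet and 300.4 ± 210 TPM (SD, n = 3) with obesogenic diet, a ratio of 8.51. By library, the obesogenic levels were 10.1, 1.92 and 13.5 times the control mean. On the log2(TPM + 1) scale, on which folds of low genes are understated, the difference was 2.68 (SE 0.68, 95% interval 1.08 to 4.27) with an adjusted p of 0.269 in limma, the linear model used for all genes with Benjamini-Hochberg adjustment.

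The second obesogenic library also stood apart in immune transcripts. Immunoglobulin transcripts took 20.6% of its listed TPM and at most 0.0439% in the other 5. Without that library Snhg11 had a log2 difference of 3.54 and an adjusted p of 0.0129 in limma, below the threshold of 0.05. In that comparison of 3 control with 2 obesogenic libraries, 6.14% of 14007 genes were called in either direction and 4.89% as higher, against 0.00696% of 14364 genes with all 6 libraries. Of the 5 transcripts, 0 were called without it, beside 0.00917% of 32703 transcripts. With limma's array weights, which give libraries that deviate less weight, the Snhg11 difference was 3.29 with an adjusted p of 0.0039, in a fit that called 14.4% of all genes in either direction and 10.5% as higher. Whether immune cells in that nerve bear on its Snhg11 level was not tested.

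Snhg11-206 was the most abundant of the chosen transcripts. It was listed at 25.5, 13.6 and 15.9 TPM in the control libraries and at 223, 39.6 and 260 TPM in the obesogenic libraries. All 3 obesogenic libraries lay above all 3 controls, and the first and the third obesogenic libraries were close to each other. The log2 difference was 2.83 (SE 0.70, 95% interval 1.19 to 4.48), with an unadjusted p of 0.00464 and an adjusted p of 0.318 in limma. Within each library it stood above 79.0% to 87.5% of the transcripts tested in the controls and above 99.0%, 93.0% and 99.0% in the obesogenic libraries.

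Snhg11-207 was listed at lower levels than Snhg11-206, with the same order of the obesogenic libraries. Its values were 11.2, 9.71 and 12.3 TPM with control diet and 87.1, 20.1 and 160.0 TPM with obesogenic diet. The control values lay close together and the obesogenic values were spread widely, without overlap. The log2 difference was 2.48 (SE 0.68, 95% interval 0.87 to 4.09, adjusted p = 0.373 in limma).

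Snhg11-205 was a minor isoform at 4.27, 1.27 and 0.941 TPM in the controls and 19.9, 4.56 and 19.7 TPM in the obesogenic libraries. Its second obesogenic library exceeded the highest control by little. The log2 difference was 2.23 (SE 0.64, 95% interval 0.71 to 3.75, adjusted p = 0.393 in limma).

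Snhg11-208 differed from the other 3 isoforms in its second obesogenic library, which lay below all controls. It was listed at 3.03, 3.12 and 0.718 TPM with control diet and at 5.58, 0.216 and 11.7 TPM with obesogenic diet. The lowest of the 6 values was in an obesogenic library, and the groups overlapped. The log2 difference was 0.61 (SE 0.88, 95% interval -1.46 to 2.68, adjusted p = 0.893 in limma), and it was -0.11 without the third obesogenic library. Its interval overlapped those of the other 3 isoforms, and a difference in response between isoforms was not tested.

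**Figure D1:**
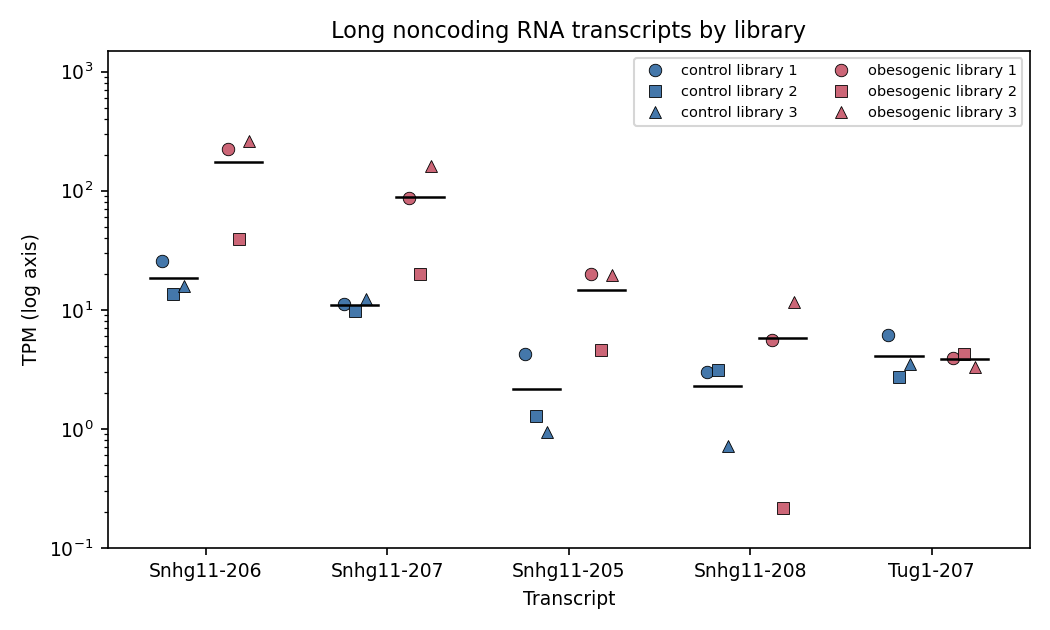
TPM on a log axis (vertical) of the 5 long noncoding RNA transcripts (horizontal) in each library, with control libraries in blue, obesogenic libraries in red and a black bar at each group's mean. Snhg11-206, Snhg11-207 and Snhg11-205 had all obesogenic libraries above all controls, and the groups overlapped for Snhg11-208 and Tug1-207.

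Against all transcripts tested, 0 of the 5 had an adjusted p below 0.05 in limma, where 0.00565% of 35408 transcripts did. At an unadjusted p below 0.05 the count was 3 of 5, against 8.46% of all transcripts in either direction and 4.63% as higher. The same 3, Snhg11-206, Snhg11-207 and Snhg11-205, did not overlap between diets and were higher with obesogenic diet, which held for 7.43% of all transcripts. Since they belong to 1 gene, this count is that of Snhg11 alone. The log2 differences of these 3 were larger than those of 99.7%, 99.4% and 99.0% of transcripts, Snhg11-208 stood above 82.7% and Tug1-207 above 42.4%. The median over all transcripts was 0.067, and over the 5 it was that of Snhg11-205, 2.23.

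**Figure D2:**
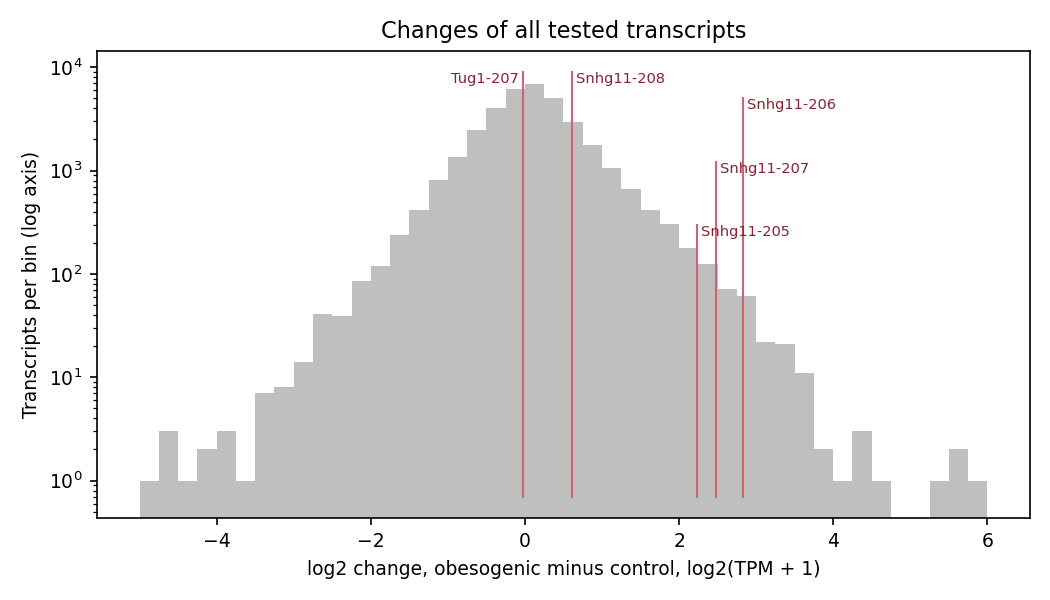
Number of tested transcripts (vertical, log axis) by their log2 difference between diets, obesogenic minus control, on the log2(TPM + 1) scale (horizontal, bins of equal width in grey). Red lines mark the 5 long noncoding RNA transcripts, with Tug1-207 at -0.030 beside the middle of the distribution and Snhg11-206 at 2.83 in its right tail.

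The shares of Snhg11 held by its main isoforms overlapped between diets, whereas those of Snhg11-208 varied widely. Snhg11-206 held 55.0%, 47.2% and 51.7% of the gene's listed TPM in the controls and 62.5%, 58.4% and 54.4% in the obesogenic libraries. These ranges overlapped by a small margin, at the first control and the third obesogenic library. Snhg11-207 held 24.3% to 39.9% of the gene over all 6 libraries, and Snhg11-205 held 3.06% to 9.22%. The ratio of Snhg11-206 to Snhg11-207 was 2.27, 1.40 and 1.30 in the controls and 2.56, 1.97 and 1.62 in the obesogenic libraries, with overlap. Snhg11-208 held 6.54%, 10.8% and 2.34% in the controls and 1.56%, 0.318% and 2.45% in the obesogenic libraries, so that the third libraries of both diets were nearly equal. Together the 4 isoforms made up 94.0% to 97.0% of Snhg11 in every library.

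The rest of Snhg11 lay almost wholly in its retained-intron transcripts, which the biotype rule left out. Snhg11-202, the transcript that contains the Gm25187 sequence, was at 1.67, 1.14 and 0.920 TPM in the controls and 17.8, 3.08 and 19.9 TPM in the obesogenic libraries. Its log2 difference was 2.40 (SE 0.65, adjusted p = 0.364 in limma), and its diets, like those of Snhg11-206, did not overlap. Snhg11-204 was listed at 0.622, 0 and 0 TPM in the controls and 2.66, 0.283 and 4.89 TPM in the obesogenic libraries. The retained-intron transcripts together held 2.99% to 4.95% of the gene in the controls and 4.96% to 5.74% in the obesogenic libraries, shares that failed to overlap by a narrow margin.

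**Figure D3:**
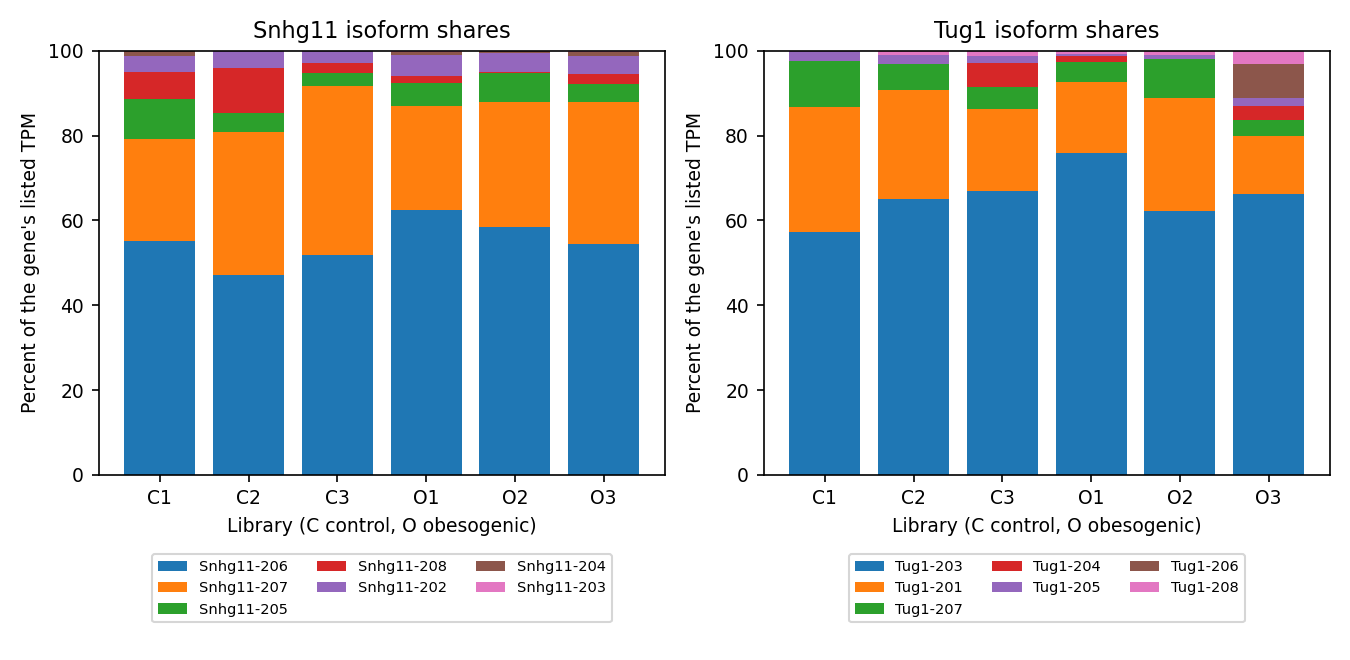
Percent of each gene's listed TPM (vertical) held by each isoform (colours) in each library (horizontal, C for control and O for obesogenic), with Snhg11 on the left and Tug1 on the right. Snhg11-206 held 47.2% to 62.5% of Snhg11 and Tug1-203 held 57.3% to 75.9% of Tug1, while Tug1-207 held 3.73% to 10.8%.

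Because Snhg11 is known from neurons, it was set beside 18 neuron markers, all of which were listed and none of which was at 0 in every library. In bulk tissue, differences in the number of cells of a type, in RNA per cell and in the tissue taken cannot be told apart. The markers summed to 402.9, 352.7 and 357.6 TPM in the controls and to 1277, 430 and 2966 TPM in the obesogenic libraries, which is the same arrangement of libraries as for Snhg11. All 18 had a higher mean with obesogenic diet, with a median log2 difference of 1.88. By limma 12 had an unadjusted p below 0.05 (5.97% of all genes did so as higher), 7 did not overlap between diets (8.88% of all genes did so as higher), and 0 were called. Snap25, a synaptic membrane fusion protein, was at 4.65, 2.22 and 7.84 TPM in the controls and 45.9, 10.1 and 90.2 TPM in the obesogenic libraries (log2 difference 2.74, adjusted p = 0.302 in limma). Gad2, an enzyme that makes the transmitter GABA, was at 6.12, 1.80 and 4.34 TPM and at 58.8, 11.8 and 61.1 TPM (log2 difference 2.93, adjusted p = 0.237 in limma). The part of neuronal RNA in the Snhg11 difference was not tested.

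Snhg11 differed between diets by more than most neuron markers and by less than some. Its log2(TPM + 1) difference exceeded that of 13 of the 18 and fell below that of 5. On this scale folds of low markers, such as Syt1 (control mean 0.649 TPM) and Slc17a6 (1.00 TPM), are understated, which affects the ranks. By ratio of means, Snhg11 (8.51) also had markers on both sides. Snap25 (9.94), Stmn2 (10.0), Gad1 (10.3), Gad2 (10.7), Rbfox3 (18.4), Syt1 (23.3) and Slc17a6 (29.5) lay above it. The other markers lay below it, from Nefh (2.32) to Nefm (7.56), with Tubb3 at 2.67 and Uchl1 at 3.16. In the first obesogenic library Snhg11 lay 3.33 above the control mean on the log2 scale and the median marker lay 2.24 above, with 16 markers below Snhg11. In the second the values were 0.96 and 0.26, with 13 markers below, and in the third they were 3.75 and 3.44, again with 13 below. Snhg11 as a percent of the marker sum was 11.5, 8.18 and 8.59 in the controls and 27.9, 15.8 and 16.1 in the obesogenic libraries, without overlap. Uchl1 weighed most in that sum, at 203, 205 and 119 TPM in the controls and 492, 147 and 1025 TPM in the obesogenic libraries. The percent therefore does not speak for all markers equally. Against single markers the picture varied. The ratio of Snhg11 to Snap25 was 9.96, 12.99 and 3.92 in the controls and 7.77, 6.72 and 5.28 in the obesogenic libraries, so the obesogenic values lay within the control range. The ratio to Stmn2, a protein of growing axons, was 3.27, 3.29 and 2.25 in the controls and 4.11, 3.01 and 1.86 in the obesogenic libraries, which also overlapped. The ratio to Tubb3, a neuronal tubulin, was 0.908, 0.705 and 0.410 in the controls and 4.13, 0.564 and 2.00 in the obesogenic libraries, with the second obesogenic library among the controls.

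**Figure D4:**
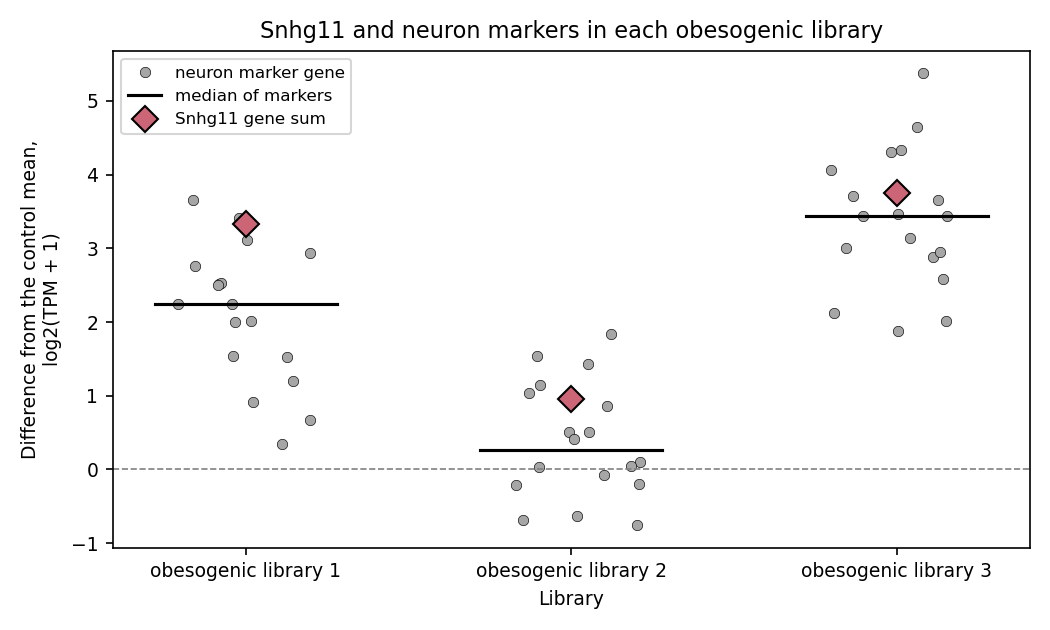
Difference of each obesogenic library (horizontal) from the control mean, on the log2(TPM + 1) scale (vertical), for the Snhg11 gene sum (red diamonds) and 18 neuron marker genes (grey points, scattered sideways for legibility, with a black bar at their median). Snhg11 lay above the marker median in all 3 libraries and within the range of the markers in each.

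Marker levels of other cell types also varied between the groups, but none of these markers was called in limma with all libraries. Mature oligodendrocyte markers, which name a main cell type of this nerve, were all 14 listed and summed to 62408 to 70411 TPM in the controls and 27302 to 55748 TPM in the obesogenic libraries. In 14 of 14 of them the mean was lower with obesogenic diet (median log2 difference -0.60). Meningeal fibroblast markers were lower with obesogenic diet in 14 of 14 (median log2 difference -1.35) and endothelial markers in 12 of 12 (median -0.89). Pericyte and smooth muscle markers were lower in 9 of 9 tested (median -1.16). B and plasma cell markers summed to 2651 TPM in the second obesogenic library and to 35.5 to 46.4 TPM in the other 5. Microglia markers summed to 2425 TPM in that library and to 586 to 897 TPM in the other 5. Astrocyte markers were present in all libraries, at 5805 to 7574 TPM in the controls and 2874 to 6830 TPM in the obesogenic libraries. Of the 10 astrocyte markers, 7 had a negative and 3 a positive log2 difference. The part of these cell types in the levels of Snhg11 and Tug1 was not tested.

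Tug1-207 did not differ detectably between the diets. It was listed at 6.14, 2.74 and 3.47 TPM in the controls and at 3.90, 4.29 and 3.33 TPM in the obesogenic libraries. The highest and the lowest value were both in control libraries, and the obesogenic values lay between them. The log2 difference was -0.030 (SE 0.37, 95% interval -0.90 to 0.84, adjusted p = 0.987 in limma), an interval that leaves room for changes in either direction. Its level was near the middle of each library, above 42.2% to 61.8% of the transcripts tested.

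Both other main isoforms of Tug1, which the table labels as processed transcripts, were more abundant. Tug1-203, with both introns removed, was at 32.6, 29.1 and 44.5 TPM in the controls and 62.6, 29.2 and 59.0 TPM in the obesogenic libraries. The first and the third obesogenic libraries lay above all controls and the second lay among them, which gave a log2 difference of 0.44 (95% interval -0.36 to 1.24, adjusted p = 0.801 in limma). Tug1-201, which keeps the second intron, was at 16.8, 11.4 and 12.8 TPM in the controls and 13.8, 12.5 and 12.4 TPM in the obesogenic libraries (log2 difference -0.065, 95% interval -0.64 to 0.51, adjusted p = 0.963 in limma). Both intron-retaining isoforms thus lay at overlapping levels in the diets.

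The balance between spliced and intron-retaining Tug1 varied among libraries. The ratio of Tug1-203 to Tug1-207 was 5.31, 10.6 and 12.8 in the controls and 16.04, 6.81 and 17.7 in the obesogenic libraries. The ratio of Tug1-203 to Tug1-201 was 1.94, 2.55 and 3.46 in the controls and 4.54, 2.34 and 4.77 in the obesogenic libraries. In both ratios the first and the third obesogenic libraries were above every control and the second was not, so the groups overlapped. These are the 2 libraries with the highest Snhg11 and neuron marker sums. Tug1-207 held 10.8%, 6.14% and 5.22% of the gene in the controls and 4.73%, 9.15% and 3.73% in the obesogenic libraries.

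**Figure D5:**
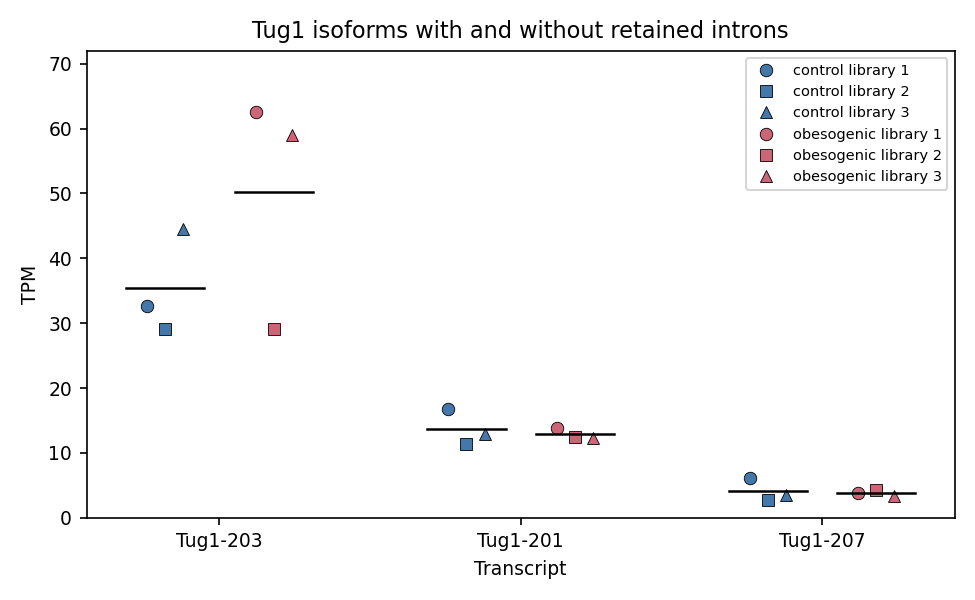
TPM (vertical) of Tug1-203, which has both introns removed, Tug1-201, which keeps the second, and Tug1-207, which keeps the first (horizontal), in each control (blue) and obesogenic (red) library, with a black bar at each group's mean. Tug1-203 was at 62.6 and 59.0 TPM in the first and the third obesogenic libraries, above all controls, whereas both intron-retaining isoforms overlapped between diets.

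Minor Tug1 isoforms were listed unevenly. Tug1-204 was at 3.77 TPM in the third control library, at 1.17 and 2.99 TPM in the first and the third obesogenic libraries, and at 0 elsewhere. Tug1-206 was at 7.12 TPM in the third obesogenic library and at 0 in the other 5. Tug1-208 reached 2.84 TPM in the third obesogenic library and was at most 0.807 TPM in the others, and Tug1-202 was at 0 in all 6. Summed over isoforms, Tug1 was at 56.9, 44.6 and 66.5 TPM in the controls (56.0 ± 10.98, SD, n = 3) and 82.5, 46.8 and 89.2 TPM in the obesogenic libraries (72.9 ± 22.8, SD, n = 3). The ranges overlapped, with a log2 difference of 0.34 (SE 0.29, 95% interval -0.34 to 1.02, adjusted p = 0.725 in limma).

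Tug1 is read away from Morc2a, which encodes an ATPase of chromatin silencing, on chr11:3649191-3690477. The isoform Tug1-205, labelled protein coding and at 0.376 to 1.59 TPM over the 6 libraries, runs 483 bases into the span of Morc2a on the opposite strand, and reads of the 2 genes there cannot be told apart because the use of strand in counting is not stated in the sources used here. Tug1-207 has no base in that span. Morc2a was at 18.8, 16.7 and 18.6 TPM in the controls and 22.6, 13.9 and 19.6 TPM in the obesogenic libraries, with overlap. Its log2 difference was 0.025 (95% interval -0.55 to 0.60, adjusted p = 0.981 in limma), so by gene sum neither of the pair differed beyond the spread. Of its isoforms, Morc2a-202 was higher with obesogenic diet without overlap, as 7.43% of all transcripts were (log2 difference 0.44, adjusted p = 0.711 in limma). Morc2a-201 (-0.58) and Morc2a-203 (-0.18) had negative log2 differences and overlapped.

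The 5 transcripts made up 0.00626%, 0.00382% and 0.00412% of the listed TPM in the controls and 0.0426%, 0.00827% and 0.0576% in the obesogenic libraries. The arrangement of libraries in this share was that of Snhg11, which supplied most of it.

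Start regions of both genes are shown, taken by gene and not by isoform. They come from RefSeq (GRCm38.p6), each with 250 bases before and 50 after the start, 5′ to 3′ on the strand of the gene, in lower case. The Snhg11 window is chr2:158375463-158375762 (plus strand) and the Tug1 window chr11:3648765-3649064 (minus strand). Capitals mark the motif matches in the Tug1 window.
Snhg11: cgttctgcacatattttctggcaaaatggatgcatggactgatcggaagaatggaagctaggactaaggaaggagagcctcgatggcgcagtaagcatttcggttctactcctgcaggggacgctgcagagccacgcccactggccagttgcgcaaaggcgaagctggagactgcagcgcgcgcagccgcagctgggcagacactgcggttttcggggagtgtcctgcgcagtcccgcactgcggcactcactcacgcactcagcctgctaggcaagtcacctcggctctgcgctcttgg
Tug1: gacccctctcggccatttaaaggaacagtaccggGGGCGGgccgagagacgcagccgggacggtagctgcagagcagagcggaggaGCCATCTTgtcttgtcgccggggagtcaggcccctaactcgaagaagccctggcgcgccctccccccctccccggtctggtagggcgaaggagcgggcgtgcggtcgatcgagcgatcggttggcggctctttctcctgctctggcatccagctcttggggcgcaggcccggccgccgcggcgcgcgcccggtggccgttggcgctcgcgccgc
Both windows are rich in G and C. G and C made up 60.0% of the Snhg11 window, more than in 70.5% of 32851 promoter windows, with 21 CpG pairs. They made up 71.3% of the Tug1 window, more than in 92.2% of windows, with 37 CpG pairs. Of 7 motifs searched on both strands, the Snhg11 window held none. These were TATAAA (in 13.6% of all windows), CCAAT (37.4%), GGGCGG (35.7%), TGACGTCA (1.79%), the palindromic core of NRF1 sites (0.971%), AAGATGGC (2.75%) and CACGTG (7.15%). The Tug1 window held GGGCGG at base 35 and GCCATCTT, the reverse complement of AAGATGGC, at base 87. A match describes letters and is not a binding site.

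Genes that process, modify or degrade noncoding RNA were read from lists, and none was called in limma with all 6 libraries. With Snhg11 and the other listed noncoding RNAs counted in, 2 of 97 genes of the lists were called without the second obesogenic library, where 6.14% of all genes were. With array weights 10 of the 97 were called, where 14.4% of all genes were. Of 16 proteins that bind or assemble small nucleolar RNA, the products of host genes such as Snhg11, 11 had a higher and 5 a lower mean with obesogenic diet, with a median log2 difference of 0.13 beside 0.079 over all genes. None of the 16 had an unadjusted p below 0.05, as 11% of all genes did. Fbl, the methyltransferase of box C/D particles, was at 42.5, 47.2 and 47.7 TPM in the controls and 56.3, 70.8 and 55.1 TPM in the obesogenic libraries (log2 difference 0.39, adjusted p = 0.490 in limma). Nop58, a core protein of the same particles, was at 29.9, 23.1 and 35.2 TPM and at 36.9, 36.2 and 49.0 TPM. Both were among 4 of the 16 that were higher without overlap, with Nufip1 and Shq1, where 8.88% of all genes were. Dkc1, Nhp2, Nop10 and Gar1, also of this list, overlapped between diets. Their log2 differences were -0.39, 0.059, -0.029 and 0.83. Whether the small nucleolar RNAs within Snhg11 belong to box C/D particles was not examined.

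Splicing and nuclear speckle proteins are of interest for intron-retaining RNAs such as Tug1-207. Of 21 tested, 15 had a higher and 6 a lower mean (median 0.12), 2 higher and 1 lower at an unadjusted p below 0.05, where 5.97% and 5% of all genes stood. Srsf2, a splicing activator, was at 83.5, 77.3 and 79.6 TPM in the controls and 48.7, 51.9 and 36.0 TPM in the obesogenic libraries (log2 difference -0.82, adjusted p = 0.253 in limma). Sf3b1, a branch site factor of the spliceosome, was at 58.9, 47.5 and 47.3 TPM and at 89.6, 75.3 and 70.1 TPM (log2 difference 0.60, adjusted p = 0.345 in limma). Both were free of overlap, which 8.88% of all genes showed as higher and 7.45% as lower with obesogenic diet. Among 15 paraspeckle proteins, which bind nuclear noncoding RNA, 9 had a higher and 6 a lower mean (median 0.080), with 0 at an unadjusted p below 0.05.

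RNA decay factors were near the level of all genes. Of 13 tested factors of nonsense-mediated decay, the pathway named in the GENCODE label of Snhg11-205, 7 had a higher and 6 a lower mean (median 0.044). Of 16 nuclear exosome genes, 11 had a higher and 5 a lower mean (median 0.15). Exosc10, its nuclear nuclease, was at 13.96, 9.996 and 9.76 TPM in the controls and 19.4, 17.6 and 21.7 TPM in the obesogenic libraries (log2 difference 0.76, adjusted p = 0.362 in limma). Of 12 tested genes that write, read or erase N6-methyladenosine, 9 had a higher and 3 a lower mean (median 0.22), with 0 at an unadjusted p below 0.05.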

How the data were processed

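Bulk poly(A) RNA of mouse optic nerve was measured in 6 libraries, made with the SMART-Seq mRNA kit per the labels' protocols. The authors deposited transcript TPM values. Per the submitters' processing notes, STAR 2.7.9a, featureCounts 2.0.3, Subread and DRAGEN were among the tools, with no role stated. Which of them gave TPM, on which genome build and annotation, is not given in the sources used here. The 110028 lines held 109383 transcripts of 35850 genes. Repeated lines of 415 transcripts were dropped, none with differing values. Listed values summed to 788456 to 832193 TPM per library. TPM keeps no depth, so depth is unknown and no counting interval is given.

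Members and gene lists were chosen with earlier results of these data known. The members were chosen by label and level, and the rule left out 5 symbols. Values were tested as log2(TPM + 1) in limma 3.58.1 (R 4.3.3; lmFit, eBayes with trend), two-sided, over transcripts or gene sums that reached 1 TPM in 3 or more of 6 libraries, with Benjamini-Hochberg adjustment over all features tested and a threshold of 0.05. The script was tested on simulated data. No exact permutation test was used, since 3 against 3 cannot go below p = 0.1. Transcripts were matched by identifier to GENCODE M21 (98.9% of those listed) for structure and sequence. All chosen transcripts were named, and some values of other genes are not reported here. Of each RNA biology list, genes could be named from the 4 of smallest unadjusted p. Some further genes of the small nucleolar RNA protein list were named beside them. Alternatives covered pseudocount, filter, scaling, immunoglobulin rescaling, array weights, other variance moderation, a replicate block and leaving out each library.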

Additional observations from a re-analysis of the deposited data

How the results depend on the processing

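The 3 isoforms Snhg11-206, Snhg11-207 and Snhg11-205 kept their direction under every alternative run, and 0 of the 5 transcripts were called under any of them. Leaving out each library in turn gave log2 differences of 2.35 to 3.69, 1.84 to 3.31 and 1.91 to 2.86 for these 3, and 2.14 to 3.54 for the Snhg11 gene sum. Without the second obesogenic library the 3 had adjusted p of 0.0655, 0.0655 and 0.102 in limma. The number of called genes of the 2 (Snhg11 and Tug1) was 0 with all libraries, 1 (Snhg11) with array weights, and 0 to 1 leaving out each library. The count over the RNA biology lists was 0 with all libraries, 10 with array weights and 0 to 2 leaving out each library. Over all genes, called genes went from 1 to 2064 with array weights and to 860 without the second obesogenic library. Over all transcripts, calls went from 2 to 0 with no filter and to 6 with variance moderation without trend. The cause of these shifts was not tested.

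Small differences turned sign. Tug1-207 went from -0.030 to 0.054 after rescaling without immunoglobulin transcripts, and from -0.23 to 0.24 leaving out each library (0.24 without the first control and 0.048 without the third obesogenic library). Tug1-201 went from -0.065 to 0.032 with the same rescaling, and from -0.18 to 0.082 (without the first control) leaving out each library. Snhg11-208 went from 0.61 to -0.11 without the third obesogenic library and reached 1.58 without the second. Morc2a went from 0.025 to -0.079 with upper quartile scaling, -0.025 with median-of-ratios scaling, -0.10 with quantile normalization, -0.026 without the second control, -0.12 without the first obesogenic, 0.21 without the second obesogenic and -0.020 without the third obesogenic library. Rescaling without immunoglobulin transcripts moved the median over all transcripts from 0.067 to 0.15.

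Libraries with the same number in the sample titles did not deviate together (r = -0.013, 0.060 and 0.049 across transcripts). The values thus gave no sign of pairing by title number. Column names of the deposited values number the libraries differently, and pairing by those was not examined. Whether samples were paired by design cannot be read from these correlations. With a replicate block by title number 0 transcripts were called, the Snhg11 gene had an adjusted p of 0.191 and Snhg11-206 one of 0.411 in limma. The 5 transcripts' share of listed TPM differed by 0.0314 percentage points between diets, by 0.0321 without immunoglobulin transcripts in the total, and by 0.0207 to 0.0454 leaving out each library, an alternative chosen after seeing the data. The planned share without Malat1 was not run, since Malat1 is not analysed here. TPM without depth limits all low values, such as those of Snhg11-208.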
